A study of Mus musculus with 17 samples.

Results

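Cholesterol synthesis in cardiac fibroblasts (CFs) was followed through 7 genes over the first 6 days after myocardial infarction. *Hmgcs1*, *Idi1*, *Fdps*, *Sqle*, *Cyp51* and *Msmo1* encode enzymes of the pathway, and *Insig1* encodes a brake on it. They were chosen by name as targets of the transcription factor SREBP2 and were matched by Ensembl identifier to 7 of the 31053 genes listed. Earlier results of these data were known when the genes were chosen, so counts and shares of the 7 are descriptions. All 7 had at least 10 counts in at least 3 libraries and were among the 14030 genes tested.

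The 17 libraries were prepared from GFP+/CD31-/CD45- cells sorted from hearts of Collagen1a1-GFP+ mice on the C57BL/6 strain, 8 to 10 weeks old, after permanent ligation of the left anterior descending coronary artery. There were 3 libraries each at 1, 2, 4 and 6 days post-infarction (dpi), 4 at 3 dpi and 1 at 5 dpi, and every group was infarcted, so that no level before injury enters the comparisons. GFP was driven by the *Col1a1* promoter, whose own activity changes after injury, and the sort removed cells with CD31 or CD45, the surface proteins of endothelial cells and leukocytes. The study's methods call the replicates biological, the labels do not name the animals behind them, and p-values measure only the spread between these libraries.

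Cells build cholesterol from acetyl-CoA by way of mevalonate, isoprenoid units, squalene and lanosterol. When sterols in the endoplasmic reticulum run low, the escort protein SCAP carries SREBP2 to the Golgi, where proteases release the part that enters the nucleus and switches on most enzymes of the pathway. When sterols are plentiful, INSIG proteins hold SCAP back and the same genes are turned down, so the set is known as a readout of the sterol supply in fibroblasts and in other cells.

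SREBP2 acts through sterol regulatory elements near the start of its targets, commonly beside sites of the factors NF-Y and Sp1, and the promoters of members with an entry in the RefSeq promoter table (GRCm38.p6, 250 bases before to 50 after the start) are shown for that reason. Of the 7 genes 5 had an entry, and *Sqle* and *Fdps* had none. Capitals mark every full match within a stretch, on either strand, to TCACNCCAC (a sterol regulatory element), CCAAT (NF-Y, ATTGG on the other strand) and GGGCGG (Sp1, CCGCCC on the other strand), and each stretch reads 5′ to 3′ on the strand of its gene. The stretch of *Hmgcs1* covers the 140 bases before its start at chr13:119690211-119690350 (plus strand). The others are 30-base stretches around a CCAAT motif, at chr13:8885580-8885609 (plus) for *Idi1*, chr5:4104709-4104738 (minus) for *Cyp51*, chr8:64733616-64733645 (minus) for *Msmo1* and chr5:28071184-28071213 (plus) for *Insig1*. The start is that of the RefSeq table and differs from the gene positions given below, which come from another annotation. By those positions the stretches of *Idi1*, *Cyp51* and *Msmo1* lie inside the gene.
Hmgcs1: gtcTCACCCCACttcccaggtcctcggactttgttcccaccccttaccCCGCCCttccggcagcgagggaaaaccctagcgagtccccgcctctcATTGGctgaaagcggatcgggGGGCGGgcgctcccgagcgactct
Idi1: gtccaaggtgccATTGGctggcgaccgaca
Cyp51: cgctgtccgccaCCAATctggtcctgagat
Msmo1: gagtgGGGCGGaCCAATtacgacaggcgag
Insig1: cgccctcctcccATTGGctccggcggcctc

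The strict sterol regulatory element was found in 1 of the 5 promoters, that of *Hmgcs1*, where it began at position -137 from the start. It was found in 1.44% of the 27025 genes of the table. A looser form, TCACNCNAC, which includes the strict one, was found in the same promoter alone among the 5 and in 3.15% of these genes. CCAAT was found in 5 of the 5 promoters and in 41.1% of the genes of the table, and GGGCGG in 5 of the 5 and in 38.2%. Of 12 other enzymes of the pathway with an entry, 11 had CCAAT and 11 had GGGCGG. Of 6 genes of the SREBP machinery, 3 had CCAAT and 5 had GGGCGG. These matches describe letters in a fixed window and do not show binding.

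Totals ranged from 8021815 to 22029938 counts per library, and a count of 0 allows up to 3 counts, or 0.136 to 0.374 counts per 1000000 counts (CPM), for counting error only. The summed level of 6 fibroblast markers was 11853 to 37853 CPM. *Ptprc*, the gene of CD45, stayed at or below 2.75 CPM, and 5 endothelial markers summed to at most 26.6 CPM. The sum of 5 mural cell markers was between 20.8 and 161 CPM, highest in the 5 dpi library. Libraries of 3 dpi were named by another scheme than the rest, and they held 43.4 to 184 CPM of 6 leukocyte markers against 8.31 to 17.8 CPM at 2 dpi. The 5 dpi library, named like the rest, held 61.3 CPM of these markers. The female transcript *Xist* was at 142 to 197 CPM at 4 dpi and 71.7 to 255 CPM at 6 dpi but at most 0.142 CPM at 3 dpi, while 4 Y-linked genes were at 41.1 to 66.4 CPM at 3 dpi and at most 0.778 CPM at 4 and 6 dpi. The change from 3 to 4 dpi and the change in these sex-linked transcripts cannot be told apart. Replicate 1 of 1 dpi also held mostly *Xist* (208 CPM), and the other libraries of 1 and 2 dpi held mostly Y-linked counts. The 5 dpi library, between 4 and 6 dpi, held 0 CPM of *Xist* and 44.2 CPM of Y-linked genes.

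Together the 7 genes were lowest at 6 dpi. Their summed level, in CPM on library sizes scaled by the trimmed mean of M values (TMM), was 80.0, 83.1 and 83.3 at 1 dpi and 48.1, 56.7 and 77.4 at 2 dpi. It was 50.6 to 91.4 with a median of 70.4 at 3 dpi, 74.1, 97.7 and 101.7 at 4 dpi, 100.5 in the 5 dpi library, and 30.9, 51.0 and 59.4 at 6 dpi. All 6 dpi libraries were below those of 1 and 4 dpi, and they overlapped those of 2 and 3 dpi. In bulk RNA, fewer cells that express a gene and less of its RNA per cell cannot be told apart. Over the whole course, *Fdps* alone of the 7 genes passed edgeR's quasi-likelihood F-test, against 15.0% of all genes tested. The threshold was a Benjamini-Hochberg adjusted p of 0.05 over all tested genes. An unadjusted p under 0.05 was held by 3 of the 7. Counts at an unadjusted p, here and below, have no share over all genes beside them. DESeq2 called 3 of the 7, *Hmgcs1*, *Idi1* and *Fdps*, and 26.8% of all genes.

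**Figure D1:**
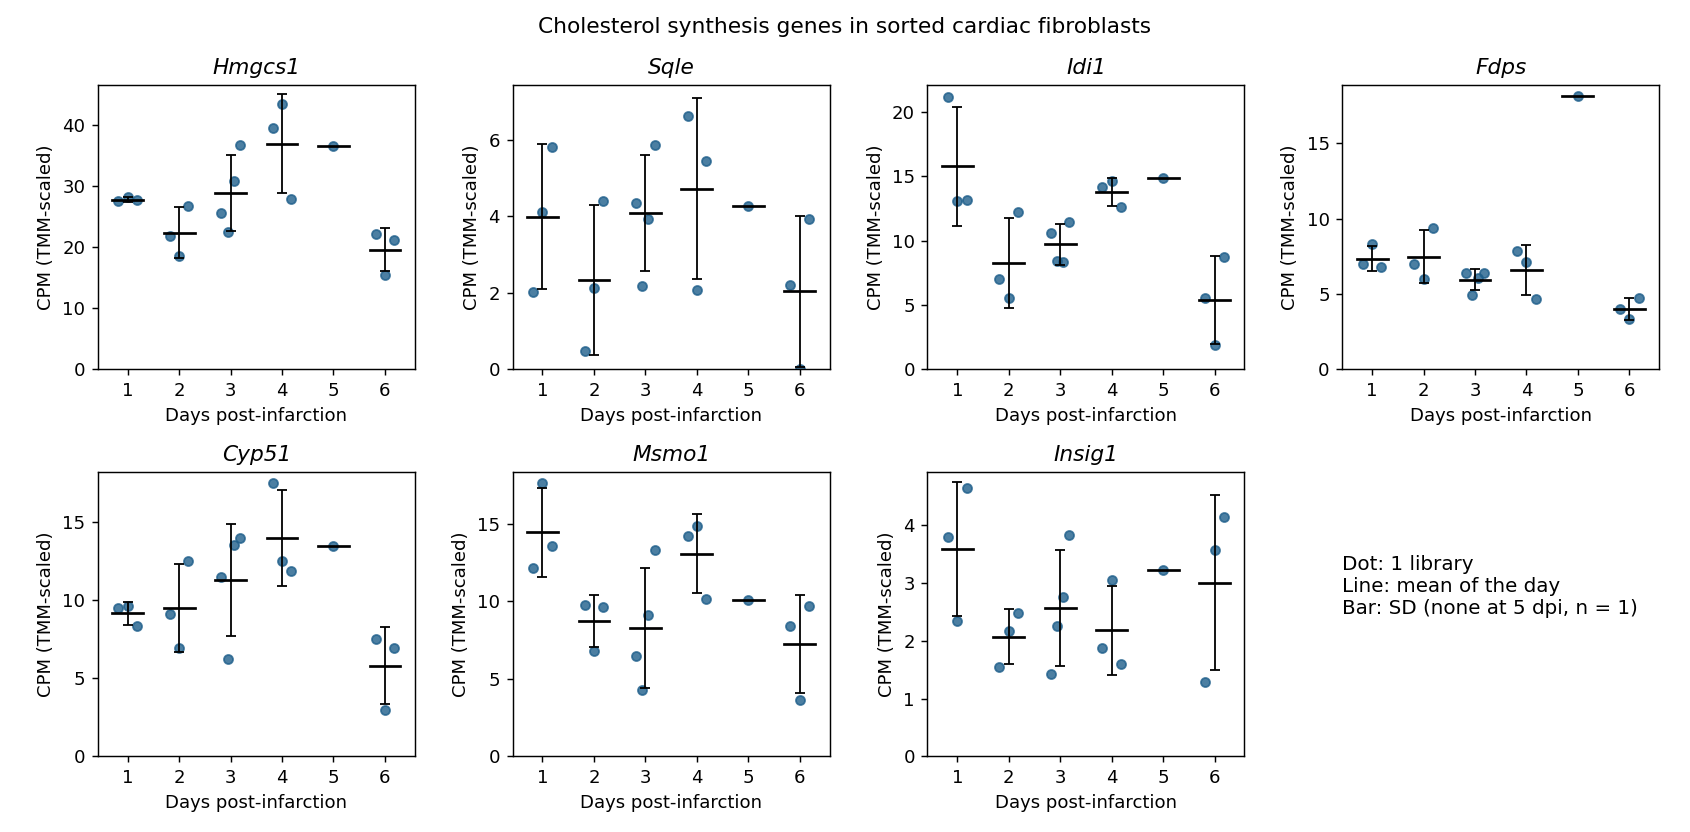
CPM on TMM-scaled library sizes (vertical axis, from 0, its own scale for each gene) of the 7 cholesterol synthesis genes by day post-infarction. Dots are libraries, lines day means and bars SDs, with none at 5 dpi where n = 1. The 6 dpi dots of *Hmgcs1*, *Idi1*, *Cyp51* and *Msmo1* all lie below the 4 dpi dots, the 5 dpi dot of *Fdps* stands at 18.1 CPM, and *Insig1* shows no such pattern.

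*Hmgcs1* (ENSMUSG00000093930, GRCm38 chr13:119690379-119708260, plus strand) encodes the cytosolic synthase that joins acetyl-CoA and acetoacetyl-CoA to HMG-CoA, an early step of the pathway. It was at 27.5, 28.2 and 27.7 CPM at 1 dpi, 21.7, 18.5 and 26.8 at 2 dpi, 25.6, 22.4, 30.8 and 36.6 at 3 dpi, 39.5, 43.4 and 27.8 at 4 dpi, 36.4 at 5 dpi and 22.1, 15.5 and 21.2 at 6 dpi. The libraries of 6 dpi lay below every library of 1 and 4 dpi, and those of 2 dpi below every library of 1 dpi. From 4 to 6 dpi the log2 fold change was -0.91 (SE 0.26, 95% interval -1.45 to -0.38), with an adjusted p of 0.0852 in edgeR's test. DESeq2 gave -0.88 with an adjusted p of 0.0249, so the call depended on the tool. The mean of 3, 4 and 5 dpi against that of 1 and 2 dpi gave 0.44 (SE 0.18, 95% interval 0.06 to 0.82) with an edgeR adjusted p of 0.153, and *Hmgcs1* was the 1 gene of the 7 with an unadjusted p under 0.05 there.

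*Idi1* (ENSMUSG00000058258, chr13:8885501-8892451, plus strand) encodes the isomerase that turns isopentenyl diphosphate into dimethylallyl diphosphate, the starter of isoprenoid chains. It was at 21.1, 13.1 and 13.1 CPM at 1 dpi, 7.07, 5.53 and 12.2 at 2 dpi, 10.6, 8.45, 8.33 and 11.5 at 3 dpi, 14.2, 14.7 and 12.6 at 4 dpi, 14.9 at 5 dpi and 5.55, 1.87 and 8.76 at 6 dpi. The day means therefore ran, from high to low, 1, 5, 4, 3, 2 and 6 dpi, and neighbouring days with replicates did not differ past the threshold. The libraries of 6 dpi were all below those of 1 and 4 dpi, those of 4 dpi all above those of 3 dpi, and those of 2 dpi all below those of 1 dpi. *Idi1* fell from 1 to 6 dpi by 1.54 on the log2 scale (SE 0.42, 95% interval -2.41 to -0.67; edgeR adjusted p = 0.0215). Without replicate 2 of 6 dpi the value was -1.14 with an adjusted p of 0.0862, without replicate 1 of 6 dpi -1.56 with 0.072, and without replicate 1 of 1 dpi, the highest library, -1.28 with 0.102. That library held mostly *Xist*, as the 6 dpi libraries did, and the part of the sex-linked difference between the other 1 dpi libraries and 6 dpi was not tested. From 4 to 6 dpi it was -1.35 (SE 0.42, 95% interval -2.22 to -0.48), with an adjusted p of 0.1 by edgeR and 0.0393 by DESeq2.

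*Fdps* (ENSMUSG00000059743, chr3:89093588-89101959, minus strand) encodes farnesyl diphosphate synthase, whose product feeds both squalene and the prenylation of proteins. It was at 6.96, 8.29 and 6.79 CPM at 1 dpi, 7.01, 6.00 and 9.41 at 2 dpi, 6.38, 4.91, 6.10 and 6.38 at 3 dpi, 7.86, 7.16 and 4.70 at 4 dpi, 18.1 at 5 dpi and 4.00, 3.32 and 4.76 at 6 dpi. The 5 dpi library was the highest by far, and among days with replicates 6 dpi lay below 1, 2 and 3 dpi and 3 dpi below 1 dpi, while the other pairs of days overlapped. Its edgeR adjusted p over the course was 0.0206, the call given above, and without the 5 dpi library no member was called over the course. That library is 1 of 17 with no replicate, so the level of *Fdps* at 5 dpi has no replicate check. From 1 to 6 dpi the log2 fold change was -0.87 (SE 0.33, 95% interval -1.55 to -0.18; edgeR adjusted p = 0.0882).

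*Sqle* (ENSMUSG00000022351, chr15:59315077-59331192, plus strand) encodes squalene epoxidase, the first oxygen-dependent and a flux-controlling step of sterol synthesis. It had few reads, 0 to 119 counts per library. Its level was 2.03, 4.12 and 5.82 CPM at 1 dpi, 0.482, 2.13 and 4.39 at 2 dpi, 4.34, 2.17, 3.94 and 5.85 at 3 dpi, 6.62, 2.08 and 5.45 at 4 dpi, 4.27 at 5 dpi and 2.20, 0 and 3.92 at 6 dpi. Within a day the level spread widely, and every pair of days with replicates overlapped. The 0 in replicate 2 of 6 dpi allows up to 0.214 CPM of that library's total. The fold change from 4 to 6 dpi was -1.19 with a 95% interval from -3.00 to 0.61, which spans 0.

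*Cyp51* (ENSMUSG00000001467, chr5:4081145-4104746, minus strand) encodes lanosterol demethylase, and *Msmo1* (ENSMUSG00000031604, chr8:64718139-64733792, minus strand) the oxidase that acts next on the methyl groups of the sterol ring. *Cyp51* was at 9.50, 9.61 and 8.31 CPM at 1 dpi, 9.10, 6.91 and 12.5 at 2 dpi, 11.4, 6.20, 13.5 and 13.9 at 3 dpi, 17.5, 12.5 and 11.9 at 4 dpi, 13.4 at 5 dpi and 7.49, 2.98 and 6.92 at 6 dpi. Every 6 dpi library was below every library of 1 and 4 dpi. From 4 to 6 dpi *Cyp51* had a log2 fold change of -1.26 (SE 0.37, 95% interval -2.04 to -0.48), with an adjusted p of 0.0919 by edgeR and 0.0338 by DESeq2. An exon of *Cyp51* overlaps *Akap9* on the opposite strand (7077 counts over all libraries against 2479 for *Cyp51*), and since the strand setting of the counting is not given in the sources used here, its values are uncertain.

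*Msmo1* was at 12.2, 17.7 and 13.6 CPM at 1 dpi, 9.75, 6.80 and 9.64 at 2 dpi, 6.47, 4.27, 9.14 and 13.3 at 3 dpi, 14.2, 14.9 and 10.1 at 4 dpi, 10.1 at 5 dpi and 8.40, 3.66 and 9.68 at 6 dpi. The 2 dpi and the 6 dpi libraries were all below those of 1 dpi, and the 6 dpi libraries were also below those of 4 dpi. Against 1 dpi its log2 fold change was -0.73 at 2 dpi (SE 0.39; edgeR adjusted p = 0.74) and -0.998 at 6 dpi (SE 0.39, 95% interval -1.82 to -0.17; edgeR adjusted p = 0.103).

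*Insig1* (ENSMUSG00000045294, chr5:28071363-28078662, plus strand) encodes the protein that retains SCAP when sterols are plentiful, and it is itself a target of SREBP2. It had 15 to 95 counts per library. Its level was 3.80, 2.35 and 4.64 CPM at 1 dpi, 1.55, 2.18 and 2.48 at 2 dpi, 1.42, 2.25, 2.75 and 3.83 at 3 dpi, 1.88, 3.06 and 1.60 at 4 dpi, 3.23 at 5 dpi and 1.29, 3.58 and 4.15 at 6 dpi. No pair of days tested was free of overlap. Replicate 1 of 6 dpi held the lowest *Insig1* value of the 17 libraries and replicate 3 the second highest, so the spread within that day covered nearly that of the series. From 4 to 6 dpi its log2 fold change was 0.45 (95% interval -0.72 to 1.62; edgeR adjusted p = 0.688), the only positive value among the 7 in that comparison.

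From 1 to 2 dpi, 0 of the 7 genes were called in either direction (0.157% of all genes were called higher and 0.0214% lower), 1 had an unadjusted p under 0.05 (*Idi1*, log2 fold change -0.93, SE 0.41, edgeR adjusted p = 0.599), and DESeq2 called 0, with 0.741% of all genes in either direction. In *Hmgcs1*, *Idi1* and *Msmo1* every 2 dpi library was below every 1 dpi library, 3 of 7 genes against 7.03% of all genes. The median log2 fold change of the 7 was -0.73, against 0.01 over all genes. Over the same interval the 5 proliferation genes had a median of 2.41, and 3 of them rose.

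From 2 to 3 dpi edgeR and DESeq2 called 0 of the 7, 0 had an unadjusted p under 0.05, and the background was 1.82% higher and 1.12% lower by edgeR and 7.58% in either direction by DESeq2. The adjusted p-values of edgeR ran from 0.448 for *Hmgcs1* to 0.945 for *Msmo1*. The leukocyte markers, with 2 of 6 called higher and a median log2 fold change of 4.49, moved between the same libraries, and their part in the levels of the 7 genes was not tested. From 3 to 4 dpi 0 of the 7 were called by either tool and 0 had an unadjusted p under 0.05 (background 1.63% higher and 1.08% lower by edgeR, and 6.39% in either direction by DESeq2). *Idi1* was the gene whose 4 dpi libraries were all above those of 3 dpi, 1 of 7 against 8.64% of all genes, with a log2 fold change of 0.51 (SE 0.38; edgeR adjusted p = 0.513). For the mean of 3 to 5 dpi against that of 1 and 2 dpi, edgeR and DESeq2 called 0 of the 7, where edgeR called 5.25% of all genes higher and 2.24% lower and DESeq2 called 11.1% in either direction, and the median of the 7 was 0.27.

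From 4 to 6 dpi, 6 of the 7 values were negative, with a median log2 fold change of -0.91 against -0.02 over all genes. By edgeR 0 of the 7 were called, at a background of 0.235% higher and 0.278% lower. Of the 7, 5 had an unadjusted p under 0.05, a count to which that background does not apply. DESeq2 called 3, *Hmgcs1*, *Idi1* and *Cyp51*, and 6.51% in either direction of the 12395 genes to which it gave an adjusted p. The 6 dpi libraries were all below the 4 dpi libraries in 4 of the 7, *Hmgcs1*, *Idi1*, *Cyp51* and *Msmo1*, against 10.2% of all genes. From 1 to 6 dpi edgeR called 1 of the 7, *Idi1*, lower and 0 higher, where it called 5.21% of all genes lower and 6.91% higher. DESeq2 also called *Idi1* alone of the 7, and 17.3% of all genes. All 7 values were negative with a median of -0.87 against 0.03 over all genes, and in 5 of 7 the 6 dpi libraries were all below those of 1 dpi, against 15.3% of all genes. Both comparisons use the same 6 dpi libraries.

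**Figure D2:**
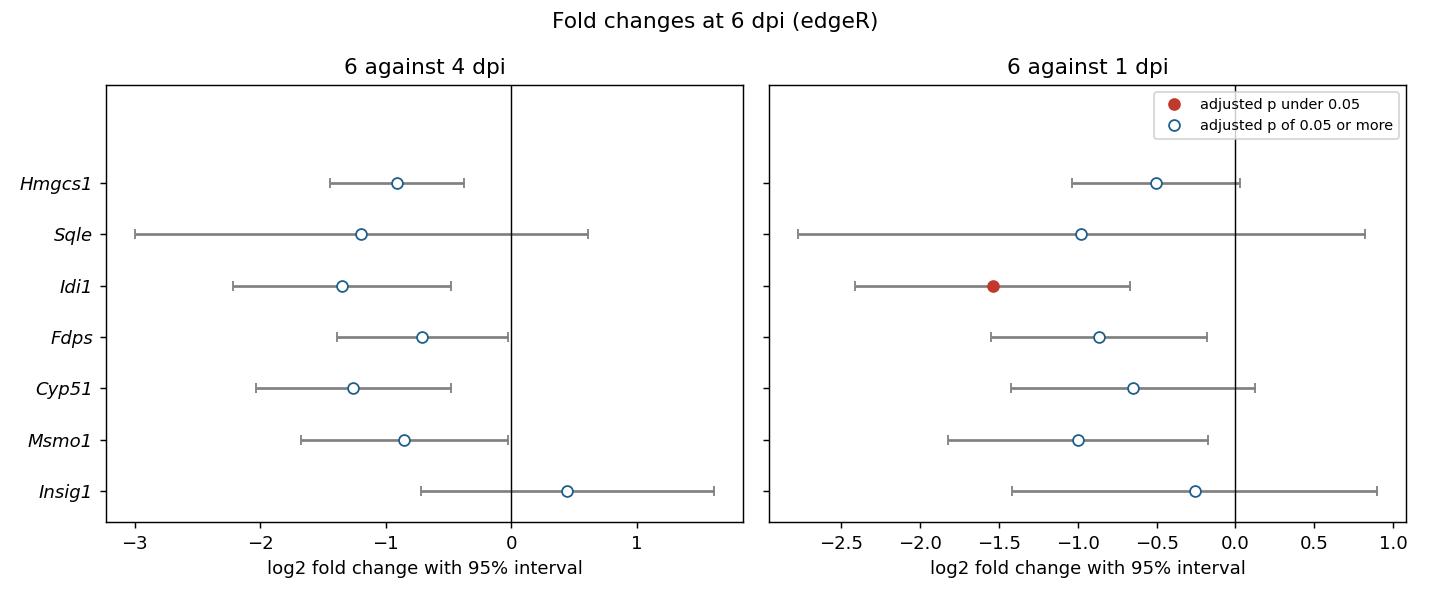
Log2 fold change (horizontal axis, dots) with its 95% interval (bars) from edgeR at 6 dpi against 4 dpi (left) and against 1 dpi (right), for the 7 genes; the filled dot marks an adjusted p under 0.05. *Idi1* against 1 dpi, at -1.54, is the filled dot, and *Insig1* against 4 dpi, at 0.45, lies to the right of 0.

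Replicate 2 of 6 dpi had the lowest of 17 values for 6 of the 7 genes, all but *Insig1*. Without that library, the 4 to 6 dpi values were -0.77 for *Hmgcs1*, -0.95 for *Idi1*, -0.95 for *Cyp51*, -0.54 for *Msmo1*, -0.59 for *Fdps* and -0.62 for *Sqle*, still negative, with adjusted p-values from 0.372 to 0.779 in edgeR's test. The same library had the lowest TMM factor (0.838), the highest share of counts in its 100 most abundant genes (42.7%) and the highest sum of 5 cardiomyocyte markers (157 CPM). That sum was 68.2 to 157 CPM at 6 dpi, 37.9 to 61.6 at 4 dpi and 13.4 to 32.8 at 1 dpi. From 1 to 6 dpi 4 of the 5 markers were called higher, against 6.91% of all genes. The part of these markers in the levels of the 7 genes was not tested. Mitochondrial transcripts held 0.458%, 0.425% and 1.71% of counts in replicates 1, 2 and 3 of 6 dpi. Their share was 1.45 to 1.86% at 1 dpi, 1.35 to 1.70% at 2 dpi and 1.22 to 2.04% at 4 dpi. The share was 0.321 to 0.782% at 3 dpi and 0.620% at 5 dpi. Centred log2 CPM of the 7 genes averaged -0.49, -1.55 and -0.02 in these 6 dpi replicates. It averaged -0.43 to 0.48 at 3 dpi and 0.58 at 5 dpi. The part of this share was likewise not tested. Without replicate 3 of 6 dpi, edgeR called 3 of the 7 from 4 to 6 dpi, *Hmgcs1*, *Idi1* and *Cyp51*, and 10.0% of all genes. Without replicate 2 of 3 dpi, a library of neither day, it called *Hmgcs1* and *Cyp51*, and 5.37% of all genes. That library stood apart within its day. Chi-square over its degrees of freedom was 174.6 to 229.7 in its pairs and 24.5 to 38.6 between the others. *Col1a1* was at 16777 CPM in it and at 4806 to 5911 CPM in the others. Over the whole course edgeR called 2099 genes with it and 3466 without it. All libraries shared the estimate of the spread, and the part of this library in it was not tested. At 4 dpi the same ratio was 133.4 and 105.4 in the pairs of replicate 3 and 23.0 in the other pair. At 6 dpi it was 95.2 and 121.3 in the pairs of replicate 3 and 52.1 in the other pair. Without replicate 3 of 4 dpi, edgeR called 0 of the 7 from 4 to 6 dpi, and 223 genes in all against 72 with it. With every gene of at least 1 count tested, edgeR called *Idi1* and *Cyp51*, and 4.29% of all genes.

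**Figure D3:**
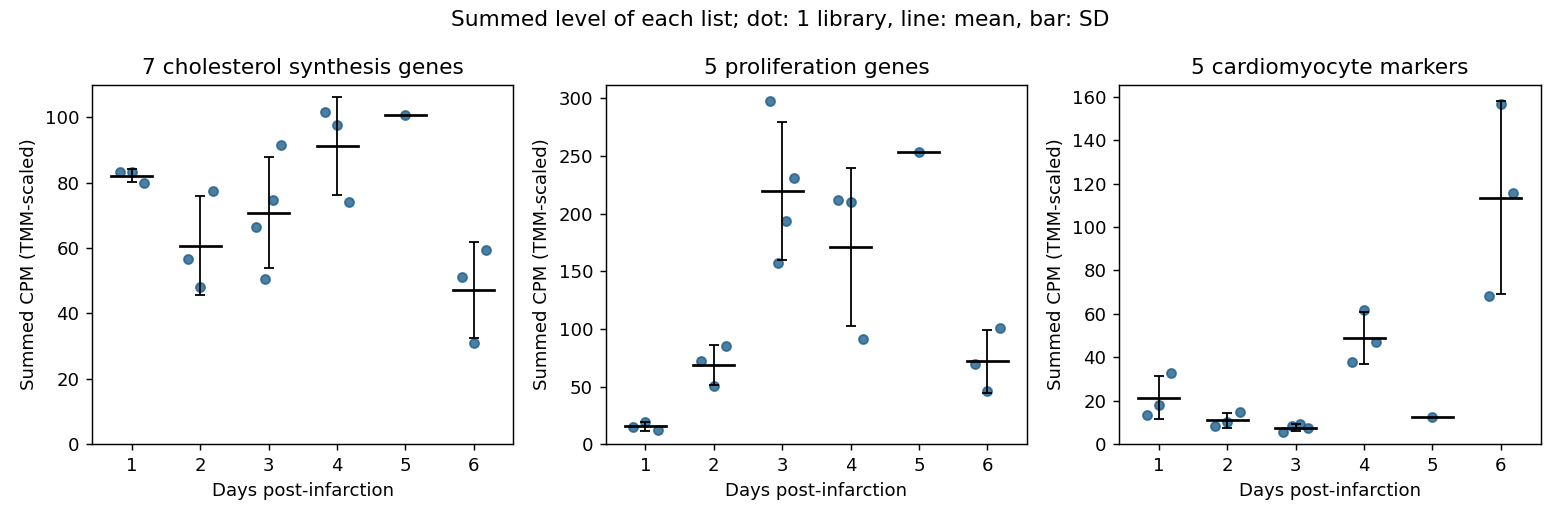
Summed CPM (vertical axis, from 0) by day post-infarction of the 7 cholesterol synthesis genes, 5 proliferation genes and 5 cardiomyocyte markers; dots are libraries, lines means and bars SDs (none at 5 dpi, n = 1). The cholesterol genes sum to 30.9 to 59.4 CPM at 6 dpi, proliferation genes are lowest at 1 dpi (12.3 to 19.5 CPM), and cardiomyocyte markers are highest at 6 dpi (68.2 to 157 CPM).

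Libraries differed in the 6 enzymes together. Over 17 libraries the 15 pairs of enzymes had a median Pearson r of 0.70 (0.44 to 0.87) and a median Spearman rho of 0.61 in log2 CPM. With each day's mean removed, over the 16 libraries of days with replicates, the median was 0.71 (0.45 to 0.88). With day means kept but without replicate 2 of 6 dpi and replicate 2 of 3 dpi, the median Pearson r was 0.46 (0.11 to 0.84). Those libraries were chosen as farthest from the median of the enzymes' own mean level. A lower value was therefore likely from the choice itself. *Insig1* had a median r of 0.13 with the enzymes (-0.16 to 0.18), or 0.29 without the same libraries. The values share library and depth, and these correlations are descriptions.

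**Figure D4:**
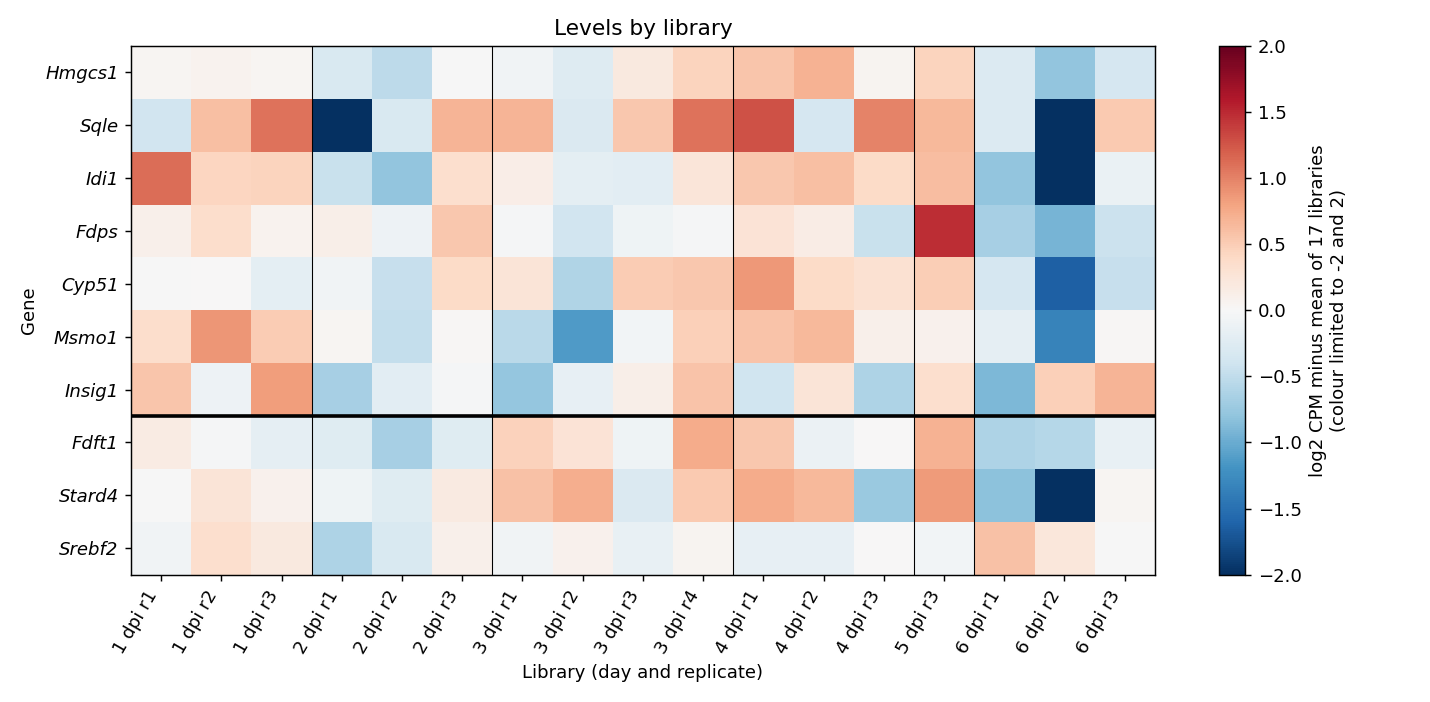
Log2 CPM of each gene (rows) minus its mean over 17 libraries, by library (columns, ordered by day and replicate), with colour limited to -2 and 2; the 7 members stand above the black line, and *Fdft1* (squalene synthase), *Stard4* and *Srebf2* below it. Replicate 2 of 6 dpi is the lowest column for the 6 enzymes, *Insig1* there is above its mean, and the rows of *Stard4* and *Srebf2* have an r of 0.78 and -0.09 with the mean of the 7 genes.

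Among 15 other enzymes of the pathway, 0 were called over the whole course, against 15.0% of all genes. Of the 15, 6 had an unadjusted p under 0.05, a count to which that share does not apply. From 1 to 6 dpi 2 of the 15 fell, against 5.21% of all genes, *Hsd17b7*, a ketosteroid reductase (-1.67, SE 0.41, edgeR adjusted p = 0.0131), and *Lss*, lanosterol synthase (-1.40, SE 0.40, adjusted p = 0.0288). Over that interval 1 of the 15 rose, against 6.91% of all genes, *Pmvk*, phosphomevalonate kinase, by 0.92 (SE 0.29; edgeR adjusted p = 0.0467). The median of the 15 was -0.14, against -0.87 for the 7 genes.

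Of 6 genes of the SREBP machinery, which controls the pathway, 0 were called over the course, against 15.0% of all genes. In edgeR's test 2 of the 6 had an unadjusted p under 0.05. From 1 to 6 dpi 1 of the 6 fell, against the same 5.21%, *Mbtps2*, which encodes a protease that releases SREBP (-1.61, SE 0.48, edgeR adjusted p = 0.0331). *Srebf2*, the gene of SREBP2 itself, was at 37.8 to 87.2 CPM with an edgeR adjusted p of 0.463 over the course, and its r with the mean of the 7 genes was -0.09. *Srebf1*, the gene of SREBP1, and *Insig2*, the other INSIG gene, had edgeR adjusted p-values of 0.344 and 0.0623 over the course. Processing of the SREBP2 protein is not measured by RNA. In the uptake and transport list 7 of 8 genes passed the filter on low counts and were tested. Over the course 1 of the 7 tested was called, against the same 15.0%, *Npc2*, which moves cholesterol out of lysosomes (edgeR adjusted p = 0.049). *Npc2* was also the 1 called higher from 1 to 6 dpi, against 6.91% of all genes (0.93, SE 0.22, edgeR adjusted p = 0.0101). *Stard4*, a sterol carrier, had an r of 0.78 with the mean of the 7 genes and was not called from 4 to 6 dpi (-1.13, SE 0.47, edgeR adjusted p = 0.194).

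Of 10390 genes with a mean of at least 50 counts, those most like the mean profile of the 7 over 17 libraries were *Pdia3*, a disulfide isomerase of the endoplasmic reticulum (Pearson r 0.91, Spearman rho 0.80), *Pcmt1* (0.85 and 0.73), *Zfp53* (0.85 and 0.54), *Arcn1*, a subunit of the COPI coat (0.85 and 0.63), and *Atg4c* (0.85 and 0.71). The median r of the genes considered was 0.04 and their 95th percentile 0.63. Without replicate 2 of 6 dpi and replicate 2 of 3 dpi the r of *Pdia3* was 0.85 and that of the other four 0.61 to 0.65.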

How the data were processed

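MARS-seq, which reads transcripts near their 3′ ends, was applied to bulk RNA of 17 libraries. The authors used bcl2fastq (1.2.4) for demultiplexing, STAR for alignment to mm10 and featureCounts, on an Ensembl GRCm38 annotation, to obtain a count per gene. The deposited values are raw counts, with no collapsing of duplicate molecules stated, so counting errors treat PCR copies as molecules. In 18 of 18 replicate pairs the counts differed beyond sampling noise (chi-square per degree of freedom 23.0 to 229.7).

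From these counts, genes were kept that reached 10 counts in 3 or more libraries. The test, in R (4.3.3), was the quasi-likelihood F-test of edgeR (4.0.16) on TMM-scaled sizes, with day as a factor of 6 levels, all 17 libraries sharing the estimate of the spread, and Benjamini-Hochberg adjustment at 0.05. Standard errors are the fold change divided by the square root of F. Log2 CPM used a prior count of 2. Positions are from GENCODE vM21, another release than that counted on. The members and the other gene lists were chosen with earlier results of these data known. Genes named are the members, *Srebf1*, *Srebf2*, *Insig2*, *Scd1*, *Abca1*, listed genes called over the whole course with a mean of at least 50 counts (marker lists as counts), and the 5 genes most correlated with the members. *Hsd17b7*, *Lss*, *Pmvk*, *Mbtps2*, *Stard4*, *Fdft1* and *Ptprc* were added after their values were seen. Some genes fixed for naming are not reported here. *Xist* and Y-linked counts were read because the labels give no sex. Alternatives were DESeq2 (1.42.0), other scalings and filters, a replicate block, subsets of libraries and each library left out. Shares by DESeq2 are over the genes to which it gave an adjusted p. These were 12395 from 4 to 6 dpi, 13754 from 2 to 3 and from 3 to 4 dpi, and 14026 otherwise. Figures were drawn with matplotlib (3.10.9).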

Additional observations from a re-analysis of the deposited data

Results flagged for a closer look

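*Abca1*, the transporter that exports cholesterol from cells, had 1 library far from the others at 3 dpi. In log2 CPM it was at 1.95, 1.82, 3.37 and 1.74, and the gap of replicate 3 to the nearest library was 0.869 of the range, above the limit for 4 libraries. Of 15 genes examined in this way 0.75 would pass by chance, about 1 in 20, and *Abca1* was the 1 that did. None of the 7 cholesterol synthesis genes passed, with *Fdps* closest at 0.823, where replicate 2 was the low library.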

How the results depend on the processing

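Of 1023 fold changes of the 7 genes under alternatives, 991 changed neither sign nor call, 10 gained a call, 4 lost one and 18, none called, changed sign. Over the whole course 1 member was called, and DESeq2 called 3, the replicate block 0, the fit without the 5 dpi library 0 and leaving out each library 0 to 2 (0 without replicate 1 or 2 of 6 dpi, 2 without replicate 2 of 3 dpi or 3 of 6 dpi). The block used replicate number 3 for the 5 dpi library, from its title, whereas its description gives 1. With every gene of at least 1 count tested the called member was *Idi1* in place of *Fdps*. From 4 to 6 dpi the count of 0 became 3 with DESeq2, 2 (*Idi1* and *Cyp51*) with every gene of at least 1 count tested, and 0 to 3 on leaving out a library. From 1 to 6 dpi the count of 1 became 0 in a fit on the libraries of those days alone (*Idi1* adjusted p = 0.0549, edgeR), and 0 to 1 on leaving out a library. The cause was not tested. In deviations from the day mean, same-numbered libraries of different days had a mean r of 0.01 over 30 pairs (-0.11 to 0.20). Other pairs had -0.01 over 72 pairs (-0.26 to 0.15). Deviations within a day sum to 0, which ties these means to each other, and both were small beside their ranges. Whether the numbers pair libraries was not tested further.

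Values that changed sign were, under the replicate block, *Cyp51* from 1 to 2 dpi (-0.011) and *Insig1* from 3 to 4 dpi (0.093). With libraries of mostly Y-linked counts they were *Fdps* from 1 to 2 dpi (-0.015) and *Insig1* at 3 to 5 dpi against 1 and 2 dpi (0.10), and without the 5 dpi library *Fdps* in the latter comparison (-0.24). On leaving out each library the ranges were -0.18 to 0.16 for *Fdps* and -0.19 to 0.24 for *Cyp51* from 1 to 2 dpi, -0.41 to 0.14 for *Msmo1* from 2 to 3 dpi, -0.13 to 0.57 for *Sqle* and -0.55 to 0.033 for *Insig1* from 3 to 4 dpi, -0.57 to 0.11 for *Insig1* from 1 to 6 dpi and -0.19 to 0.048 for *Insig1* at 3 to 5 dpi against 1 and 2 dpi.

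Calls over all genes were 2099 over the course (1307 to 3757 under the alternatives), 25 from 1 to 2 dpi (8 to 153), 412 from 2 to 3 dpi (46 to 1042), 380 from 3 to 4 dpi (125 to 879), 72 from 4 to 6 dpi (3 to 1402), 1700 from 1 to 6 dpi (763 to 2577) and 1050 for 3 to 5 dpi (767 to 1601). *Sqle* and *Insig1* had the fewest counts, 0 to 119 and 15 to 95 per library.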

Other observations

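A list of cholesterol efflux, storage and oxysterol genes, with the genes of the LXR sterol receptors, was also examined. It held 4 calls among 9 genes over the whole course by edgeR's test, against 15.0% of all genes. *Ch25h*, a hydroxylase that turns cholesterol into an oxysterol, was at 241, 200 and 147 CPM at 1 dpi, 89.0, 61.9 and 56.5 at 2 dpi, 62.7 to 83.2 at 3 dpi, 42.9, 52.7 and 42.7 at 4 dpi, 25.3 at 5 dpi and 11.4, 6.82 and 11.4 at 6 dpi. It fell by 4.31 on the log2 scale from 1 to 6 dpi (SE 0.30; edgeR adjusted p = 7.74e-08) and by 2.22 from 4 to 6 dpi (SE 0.27; edgeR adjusted p = 0.000746). *Cyp27a1*, another sterol hydroxylase, was called over the course (edgeR adjusted p = 0.000912).

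*Apoe*, a lipid carrier, rose from 1 to 6 dpi by 1.40 (SE 0.41; edgeR adjusted p = 0.0294) and stood at 7002 CPM in replicate 2 of 6 dpi, the library with the lowest levels of the synthesis enzymes, against 3800 and 2414 CPM in the others of that day. *Nr1h3*, the gene of the sterol receptor LXR alpha, was lower at 3 to 5 dpi than at 1 and 2 dpi (-1.19, SE 0.27, edgeR adjusted p = 0.00778). Of 10 fatty acid synthesis genes 1 was called over the course, against the same 15.0%, *Elovl6*, a fatty acid elongase, which fell by 1.86 from 1 to 6 dpi (SE 0.42; edgeR adjusted p = 0.00716). *Scd1*, a fatty acid desaturase, had an edgeR adjusted p of 0.0723 over the course.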
